A study of Homo sapiens with 9 samples.

Results

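The binding sites of JUND in PC3 cells and of ERG in RWPE-1 cells were compared region by region, using the deposited peak lists. A peak is a called region of chromatin immunoprecipitation followed by sequencing (ChIP-seq), and peaks that overlapped by at least 1 bp were called shared. By this rule 193 regions were shared, out of 5287 peaks in both lists and 27416 in all 6 lists of the series. The other 2780 JUND and 2121 FLAG-ERG peaks are called specific here, which means only that the list of the other factor had no overlapping peak.

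PC3 is a line from a metastatic prostate carcinoma, and its JUND protein was precipitated with an antibody against JUND, without retroviral expression. RWPE-1 is an immortalised, non-tumorigenic line of prostate epithelium, and ERG was expressed there from a retrovirus as a FLAG fusion and precipitated with a FLAG antibody. The other lists served to annotate the regions. They hold ETV4 in PC3, and FLAG-ETV1, ETS1 and GABPA in RWPE-1. FLAG-ETV1 was a retroviral fusion like FLAG-ERG, while the endogenous ETV4, ETS1 and GABPA proteins were recovered with their own antibodies. Cell line, antibody and ectopic expression all differ between the JUND and the ERG library, so their contributions cannot be told apart. With 1 library per factor there was no replicate error to give, the depth is unknown, and no test between conditions was made. Intervals are 95% intervals of counting error only, and neighbouring peaks are not independent.

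JUND is a member of the JUN family, whose proteins pair with FOS or other JUN proteins into the AP-1 transcription factor and bind DNA through a basic leucine zipper. ERG belongs to the ETS family, which binds elements with a GGA core through the ETS domain, and a fusion of its gene to an androgen-responsive promoter is the most frequent ETS rearrangement of prostate cancer. ETS and AP-1 elements often lie close together in enhancers of genes of migration and invasion, where both families respond to RAS and MAP kinase signalling. The comparison addressed how far ERG, placed in a normal line, was found at regions that an AP-1 subunit occupies in a cancer line.

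The shared regions were a small part of either list, 6.49% of the JUND peaks (5.66 to 7.43%) and 8.34% of the FLAG-ERG peaks (7.28 to 9.54%). Each shared region joined 1 JUND peak with 1 FLAG-ERG peak. They lay in at least 1 of the other ETS lists more often than specific peaks did, though this did not hold for each list taken alone. At least 1 of the other 4 lists overlapped 69.4% of the JUND peaks with FLAG-ERG (62.6 to 75.5%) and 27.4% of those without (25.8 to 29.1%), and 70.5% of the FLAG-ERG peaks with JUND (63.7 to 76.5%) and 41.0% of those without (38.9 to 43.1%). Over the whole lists the shares were 30.2% for JUND and 43.4% for FLAG-ERG. Of the 193 regions, 57 lay in no other list, 79 in 1, 49 in 2, 8 in 3 and 0 in all 4. A count of 0 allows a share of up to 1.55%, taken here as 3 counts of the total (the Wilson interval reaches 1.95%). The combination with ETV4 alone was the most frequent (46 regions), followed by ETV4 with FLAG-ETV1 (39) and FLAG-ETV1 alone (29).

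ETV4, the PEA3-subfamily ETS protein mapped in the same PC3 cells as JUND, was present at 101 of the 193 shared regions. This was 52.3% (45.3 to 59.3%), against 22.3% of the JUND peaks without FLAG-ERG (20.8 to 23.9%) and 24.3% of all JUND peaks. The difference between JUND peaks with and without FLAG-ERG was 29.99 percentage points (22.8 to 37.1). Among FLAG-ERG peaks, ETV4 was at the same 52.3% of those with JUND and at 4.998% of those without (4.15 to 6.01%), with 8.95% in the whole FLAG-ERG list. That difference was 47.3 points (40.2 to 54.3). Since ETV4 and JUND come from one cell line, a property of PC3 chromatin and a property of the factors cannot be told apart in it.

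FLAG-ETV1, a PEA3 relative of ETV4 expressed in RWPE-1 with the same tag as ERG, separated the JUND peaks more sharply than the FLAG-ERG peaks. It overlapped 39.9% of the JUND peaks with FLAG-ERG (33.2 to 46.9%) and 5.76% of those without (4.95 to 6.68%), a difference of 34.1 points (27.4 to 41.2), with 7.97% over all JUND peaks. Among FLAG-ERG peaks the shares were 40.4% with JUND (33.7 to 47.5%) and 30.3% without (28.4 to 32.3%), with 31.1% over the whole list. The difference was 10.1 points (3.18 to 17.4). The lists of FLAG-ETV1 and FLAG-ERG share cell line, antibody and mode of expression.

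The endogenous ETS proteins behaved differently from each other at the FLAG-ERG peaks. ETS1, which is itself a target of RAS and MAP kinase signalling, overlapped 9.33% of the FLAG-ERG peaks with JUND (5.98 to 14.3%) and 9.57% of those without (8.39 to 10.9%). The whole list had 9.55%, and the difference of -0.24 points had an interval from -3.84 to 4.83. GABPA, an ETS protein known mainly from promoters of housekeeping genes, overlapped 4 of the 193 FLAG-ERG peaks with JUND, 2.07% (0.81 to 5.21%). It overlapped 10.4% of those without JUND (9.19 to 11.8%) and 9.72% of all FLAG-ERG peaks, so the shared regions lay 8.35 points lower (difference -8.35, interval -10.2 to -4.98). Seen from JUND, ETS1 was at 8.81% of the peaks with FLAG-ERG (5.57 to 13.7%) and at 1.04% of those without (0.73 to 1.49%), with 1.55% of all JUND peaks, a difference of 7.77 points (4.50 to 12.6). GABPA was at 3 of 193 and 32 of 2780 JUND peaks, 1.55% and 1.15%, with 1.18% of all JUND peaks. The interval of that difference, -0.72 to 3.34 points, includes 0.

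**Figure D1:**
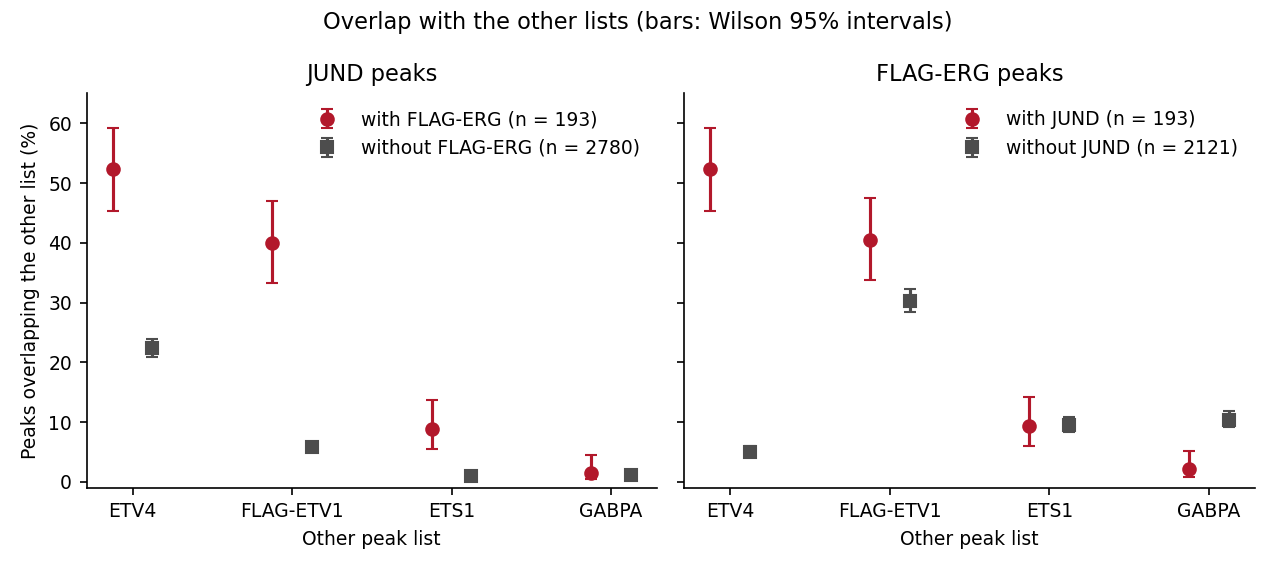
Share of JUND peaks (left) and FLAG-ERG peaks (right) that overlap each of the other 4 lists, in percent, for peaks with (red circles) and without (grey squares) an overlapping peak of the other factor; bars are Wilson 95% intervals. ETV4 lies at 52.3% of the shared regions, against 22.3% and 4.998% of the specific JUND and FLAG-ERG peaks, while ETS1 has nearly the same share of FLAG-ERG peaks with and without JUND.

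ETV4 and FLAG-ETV1 were then considered together. Among JUND peaks, FLAG-ERG was found at 2.93% of those with neither protein (62 of 2119, 2.29 to 3.73%) and at 8.75% of those with ETV4 only (54 of 617, 6.77 to 11.2%). The share was 22.7% with FLAG-ETV1 only (30 of 132, 16.4 to 30.6%) and 44.8% with both (47 of 105, 35.6 to 54.3%). These 4 intervals do not overlap, and each added protein went with a larger share of FLAG-ERG.

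Among FLAG-ERG peaks the JUND share went with ETV4 and not with FLAG-ETV1. JUND was at 4.11% of the FLAG-ERG peaks with neither protein (61 of 1483, 3.22 to 5.25%) and at 4.97% of those with FLAG-ETV1 only (31 of 624, 3.52 to 6.97%). With ETV4 the shares were 48.6% without FLAG-ETV1 (54 of 111, 39.6 to 57.8%) and 49.0% with it (47 of 96, 39.2 to 58.8%). At FLAG-ERG peaks with ETV4, FLAG-ETV1 had nearly the same share with JUND (46.5%, 37.1 to 56.2%) and without it (46.2%, 37.0 to 55.7%). At FLAG-ERG peaks without ETV4 FLAG-ETV1 was at 33.7% with JUND (24.9 to 43.8%) and 29.4% without (27.5 to 31.5%), intervals that overlap. Within either class of ETV4, the gap between FLAG-ERG peaks with and without JUND was smaller in value than the 10.1 points found over the whole list. No interval was computed for the gaps within classes, so this difference in size was not tested.

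JUND and FLAG-ERG were found at 8 regions together with 3 further ETS lists, and 7 of these carried ETV4, FLAG-ETV1 and ETS1. The most closely centred was on chromosome 4 (hg18, 25808051 to 25808476), where the midpoints of the JUND and FLAG-ERG peaks were 4 bp apart. The next on this list were on chromosome 20, 29662019 to 29662536 (21.5 bp), chromosome 1, 150287169 to 150287686 (28 bp), and chromosome 14, 93495494 to 93496010 (37 bp). A region on chromosome 9, 129363757 to 129364300, had midpoints 52 bp apart. In the remaining pair of regions the peaks were clearly offset. On chromosome 1, 93939607 to 93940332, the midpoints were 244 bp apart, and on chromosome 20, 39065160 to 39066019, they were 363.5 bp apart. The eighth region, on chromosome 1, 59087134 to 59087635, was the one with GABPA in place of ETS1, and its JUND and FLAG-ERG midpoints were 5 bp apart with 492 bp of overlap. Among regions with ETV4 and FLAG-ETV1 as the 2 further lists, midpoints were closest on chromosome 12, 55792136 to 55792635 (7.5 bp) and 104852088 to 104852587 (8 bp), and on chromosome 1, 33671782 to 33672268 (14 bp). No gene annotation of hg18 was used here, so regions are given by position and not by gene, and no sequence is shown.

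The JUND and FLAG-ERG peaks of a shared region were often centred on nearly the same place. The median distance between midpoints was 103.5 bp (75.5 to 123.5 bp), with the middle part of the distribution, from the lower to the upper quartile, between 43 and 202.5 bp. Midpoints lay within 50 bp in 62 regions and within 100 bp in 94 (48.7%, 41.7 to 55.7%). In 22 regions they were more than 300 bp apart, and the greatest distance was 476.5 bp. The peaks were of nearly uniform width (median 487 bp for JUND and 482 bp for FLAG-ERG, with a maximum of 501 bp), so overlap by itself limits the distance to about that length. The midpoint of a called region is also only an estimate of where the protein bound. In 107 regions the FLAG-ERG midpoint had the lower coordinate, in 85 the higher, and in 1 both were equal.

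The extremes show the range of what the overlap rule admits. On chromosome 12, 6315607 to 6316107, both midpoints were identical and FLAG-ETV1 was also present. On chromosome 8, 82100993 to 82101490, they were 0.5 bp apart with no other factor. The same distance was found on chromosome 17, 965046 to 965509, a region with ETV4 and ETS1 that also ranked first by spacing among regions in 2 further lists. Distances of 1 bp and 3 bp followed on chromosome 9, 21674829 to 21675311, and chromosome 1, 226189116 to 226189614, both with ETV4. At the other end, a region on chromosome 8, 145085857 to 145086826, owed its place to 17 bp of overlap. The next shortest overlaps were 49 bp (chromosome 1, 47888570 to 47889456), 50 bp (chromosome 17, 26931629 to 26932515), 57 bp (chromosome 2, 9344846 to 9345695) and 60 bp (chromosome 12, 26362379 to 26363107). Of these 5 regions, 3 lay in no other list, the first had ETV4 and the third FLAG-ETV1.

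Just outside the rule were 19 pairs of JUND and FLAG-ERG peaks that did not overlap but were separated by at most 500 bp, and 9 of these by at most 200 bp. The narrowest gap, 46 bp, occurred on chromosome 1 (JUND 24493460 to 24493950, FLAG-ERG 24493997 to 24494380) and on chromosome 16 (JUND 64250245 to 64250743, FLAG-ERG 64249717 to 64250198). Gaps of 48, 76 and 90 bp followed on chromosomes 19, 1 and 18. These pairs were counted as specific peaks of both factors.

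Shared regions with ETV4 were centred more closely than those without, though the intervals overlapped. The median JUND to FLAG-ERG distance was 76 bp with ETV4 (101 regions, 61.5 to 110 bp) and 130.75 bp without (92 regions, 96 to 164 bp). In the 57 regions of no other list it was 151 bp (79 to 188.5 bp), and 38.6% of those regions (27.1 to 51.6%) had midpoints within 100 bp. FLAG-ETV1 made less difference, with 92.5 bp in its presence (53 to 123 bp) and 113.5 bp in its absence (75.5 to 152.5 bp).

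Where 3 peaks overlapped each other, the distances could be compared within the same regions. In the 101 regions with ETV4, the median distance was 62.5 bp from ETV4 to JUND (46.5 to 83 bp), 59.5 bp from ETV4 to FLAG-ERG (49.5 to 108.5 bp) and 76 bp from JUND to FLAG-ERG. ETV4 and JUND, from the same cells, were the closest pair in 44 regions, ETV4 and FLAG-ERG in 31, and JUND and FLAG-ERG in 25. In the 77 regions where a FLAG-ETV1 peak met both, the JUND and FLAG-ERG midpoints were 92.5 bp apart (53 to 118 bp), FLAG-ETV1 and FLAG-ERG 113.5 bp (86 to 135.5 bp) and FLAG-ETV1 and JUND 123.5 bp (94.5 to 152 bp). There the closest pair was JUND with FLAG-ERG in 35 regions, FLAG-ETV1 with FLAG-ERG in 23 and FLAG-ETV1 with JUND in 19. FLAG-ETV1 and FLAG-ERG share the cell line and the antibody. The intervals of the medians overlap, and the counts of closest pairs were not tested.

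**Figure D2:**
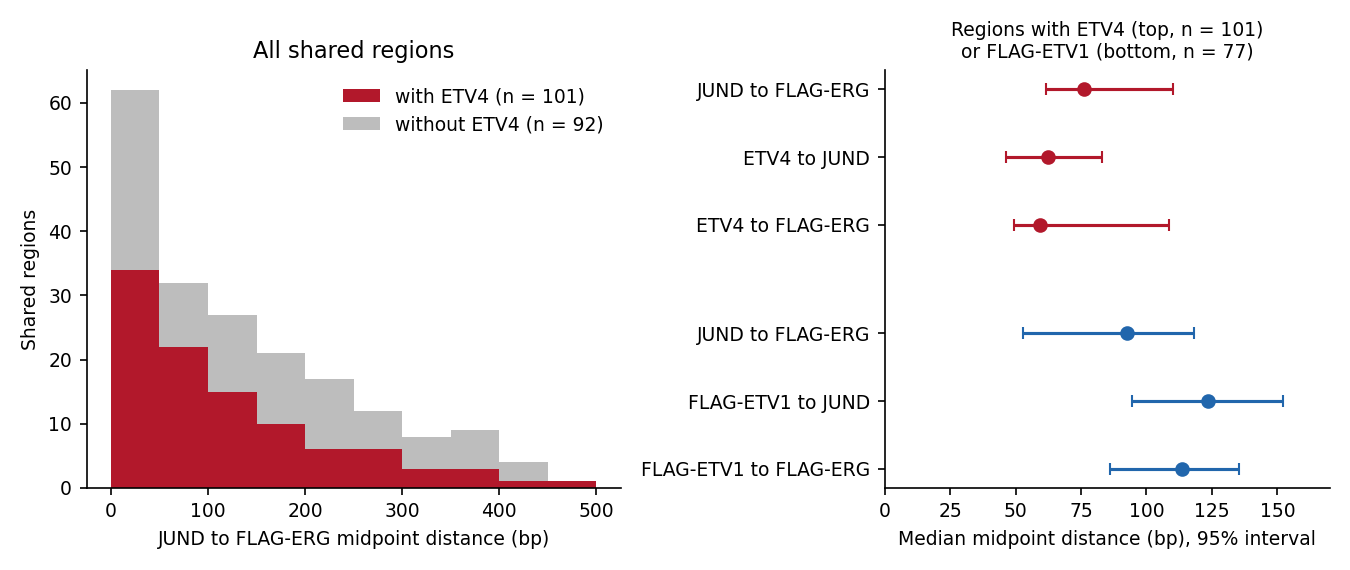
Left, the number of shared regions by distance in bp between the JUND and FLAG-ERG midpoints, in bins of 50 bp, stacked for regions with (red) and without (grey) an ETV4 peak. Right, median midpoint distance of each pair of peaks with its 95% order-statistic interval, in regions with ETV4 (red, n = 101) and with FLAG-ETV1 (blue, n = 77); the first bin holds 62 regions, and the intervals of the 3 pairs overlap in either set.

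The distance between FLAG-ERG and ETV4 could also be compared with and without JUND. Its median was 59.5 bp at the 101 FLAG-ERG peaks with ETV4 and JUND (49.5 to 108.5 bp), and 126 bp at the 106 with ETV4 but without JUND (96 to 159 bp). Midpoints lay within 100 bp at 58.4% (48.7 to 67.5%) and 41.5% (32.6 to 51.03%) of them, and both pairs of intervals overlap slightly. The distance between JUND and ETV4 changed little with FLAG-ERG, from 72.5 bp at the 621 JUND peaks without it (62.5 to 83 bp) to 62.5 bp with it. The distance between FLAG-ERG and FLAG-ETV1 was 114.5 bp with JUND (86 to 139 bp) and 123.5 bp without (111.5 to 134.5 bp).

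Shared regions were found on 22 of 23 chromosomes, chromosome X being the exception. Chromosome 1 held 39 of them, 20.2% (15.1 to 26.4%), against 10.6% of the JUND and 15.0% of the FLAG-ERG list. It was the only chromosome whose share of the shared regions had an interval above its share of both lists. The lower bound, 15.1%, lay just above the value of the FLAG-ERG list. All 23 chromosomes were compared in this way, with no allowance for their number. Chromosomes 2, 8 and 20 followed with 19, 18 and 18 regions.

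The share of peaks in common varied between chromosomes. Of chromosomes with at least 30 peaks of a list, JUND peaks were most often shared on chromosome 20, in 18 of 125 cases (14.4%, 9.31 to 21.6%). FLAG-ERG peaks were most often shared on chromosome 8, in 18 of 111 (16.2%, 10.5 to 24.2%). Over the whole lists the shares were 6.49% for JUND and 8.34% for FLAG-ERG. Both chromosomes were rich in the other list. Chromosome 20 held 7.30% of the FLAG-ERG and 4.20% of the JUND list, and chromosome 8 held 8.78% of the JUND and 4.80% of the FLAG-ERG list. The lowest values were 0 of 44 JUND peaks on X, which allows up to 6.82% by the limit of 3 counts and 8.03% by the Wilson interval, and 1 of 62 FLAG-ERG peaks on chromosome 4 (1.61%, 0.29 to 8.59%). On chromosome 7, 1 of 179 JUND peaks was shared (0.56%, 0.10 to 3.10%), where the FLAG-ERG list had 36 peaks, and on chromosome 3, 6 of 221 were (2.71%, 1.25 to 5.80%). On chromosome 7 the share of the JUND list was 3.87 times that of the FLAG-ERG list, and on chromosome 9 it was 0.354 times. On chromosome 20, 13 of the 18 shared regions carried ETV4 and 11 carried FLAG-ETV1, and on chromosome 8, 8 of 18 carried each. Of all 193 shared regions, 101 carried ETV4 and 78 FLAG-ETV1, and these differences between chromosomes were not tested. Cell line and factor cannot be told apart in these differences.

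**Figure D3:**
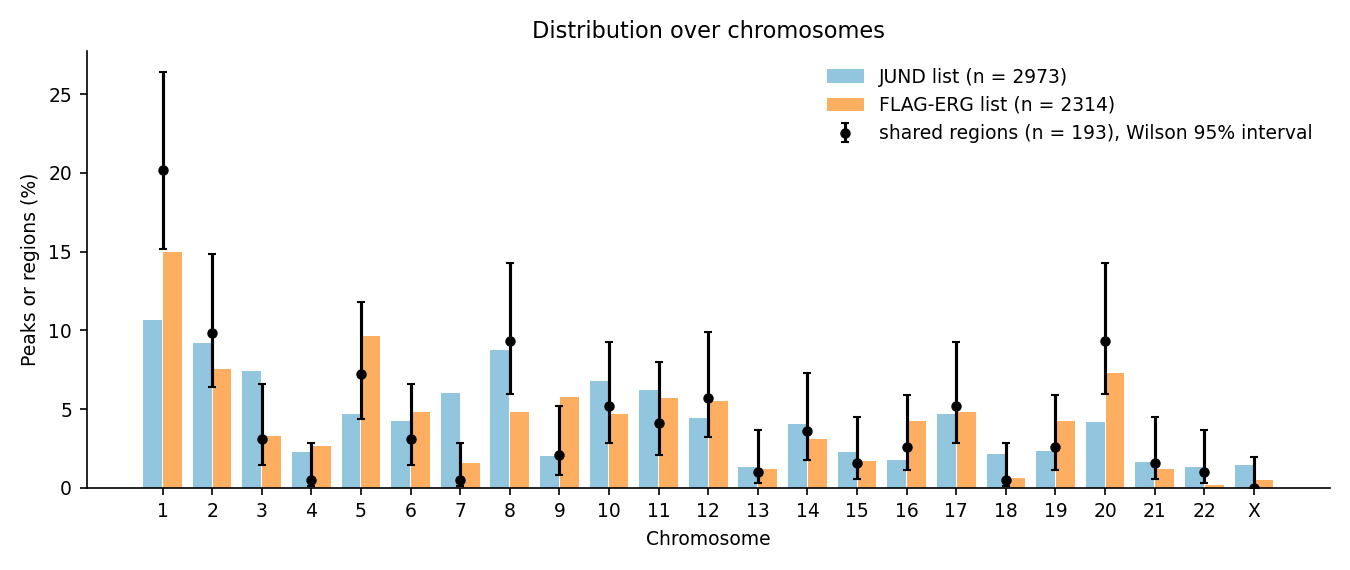
Share of the JUND list (blue bars), of the FLAG-ERG list (orange bars) and of the 193 shared regions (black points with Wilson 95% intervals) on each chromosome, in percent. Chromosome 1 holds 20.2% of the shared regions, and chromosomes 4, 7 and 18 hold 1 region each.

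Most shared regions stood alone. Linked at midpoint distances of up to 100 kb, 166 of them had no shared neighbour, 18 formed 9 pairs and 9 formed 3 groups of 3. The most compact group spanned 12.631 kb on chromosome 8, 145082518 to 145095148, with ETV4 at all 3 regions and FLAG-ETV1 at 2. Another spanned 25.298 kb on chromosome 1, 199510897 to 199536194, with ETV4 at 1 region and no other factor at the remaining ones. The third spanned 54.621 kb on chromosome 1, 17432487 to 17487107, with ETV4 at 2 regions, FLAG-ETV1 at 2 and ETS1 at 1. In 2 of the 3 groups, those on chromosome 8 and at 17432487, all peaks of both lists within the span were shared ones. The group at 199510897 held 1 further FLAG-ERG peak.

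Of the 1 Mb windows of the genome, 1363 held a JUND peak, 1036 a FLAG-ERG peak and 676 both, but 165 held a shared region. Windows with 3 shared regions were those at 17000001 to 18000000 and 199000001 to 200000000 of chromosome 1, with 4 JUND and 6 FLAG-ERG peaks and with 9 and 20. A further window was at 128000001 to 129000000 of chromosome 8 (9 JUND and 5 FLAG-ERG peaks), and the last at 145000001 to 146000000 (5 and 16). In the window at 128000001, the shared region at 128935586 to 128936236 carried ETV4 and FLAG-ETV1, that at 128941113 to 128941657 FLAG-ETV1, and that at 128749975 to 128750821 ETV4. Other windows were picked for many peaks of one factor and no shared region, so the lack of sharing there was set by the choice. The window at 33000001 to 34000000 of chromosome 10 had 15 JUND and 0 FLAG-ERG peaks, and that at 200000001 to 201000000 of chromosome 1, beside a window with 3 shared regions, had 15 FLAG-ERG peaks and 1 JUND peak.

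Shared peaks had close neighbours of their own list somewhat more often than specific peaks, but with overlap by 1 bp the interval of the difference lay above 0 at short range for JUND and at no distance tried for FLAG-ERG. Within 10 kb, another JUND peak lay beside 17.1% of the JUND peaks with FLAG-ERG (12.4 to 23.04%) and 10.8% of those without (9.66 to 11.96%), a difference of 6.34 points (1.53 to 12.4). Within 100 kb the shares were 50.3% and 45.5%, and the interval of the difference, -2.51 to 11.9 points, included 0. For FLAG-ERG the shares within 10 kb were 11.4% with JUND (7.65 to 16.7%) and 9.52% without (8.35 to 10.8%), and within 100 kb they were 50.8% and 44.0%. Both intervals of the difference included 0 (-2.10 to 7.26 and -0.53 to 14.1 points). The median distance to the next FLAG-ERG peak was 91.2 kb for shared peaks (68.5 to 125.2 kb) and 130.8 kb for specific ones (120.9 to 143.8 kb).

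JUND peaks outside the FLAG-ERG list lay near FLAG-ERG peaks more often than near ETS1 peaks at short range. The FLAG-ERG and ETS1 lists are of similar length and come from the same line, and both shares were taken over the 2751 JUND peaks that overlapped neither. A FLAG-ERG peak lay within 5 kb of 3.42% of them (2.80 to 4.16%), and an ETS1 peak within 5 kb of 1.27% (0.92 to 1.76%). Within 10 kb the shares were 5.45% (4.66 to 6.36%) and 3.42% (2.80 to 4.16%), and within 1 Mb they were 68.4% and 68.6%. Of the 2015 FLAG-ERG peaks that overlapped neither JUND nor ETV4, 3.97% had a JUND peak within 5 kb (3.20 to 4.91%) and 3.52% an ETV4 peak (2.80 to 4.42%), intervals that overlap. Within 100 kb the JUND share was 31.7% (29.7 to 33.7%) and the ETV4 share 26.998% (25.1 to 28.98%).

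**Figure D4:**
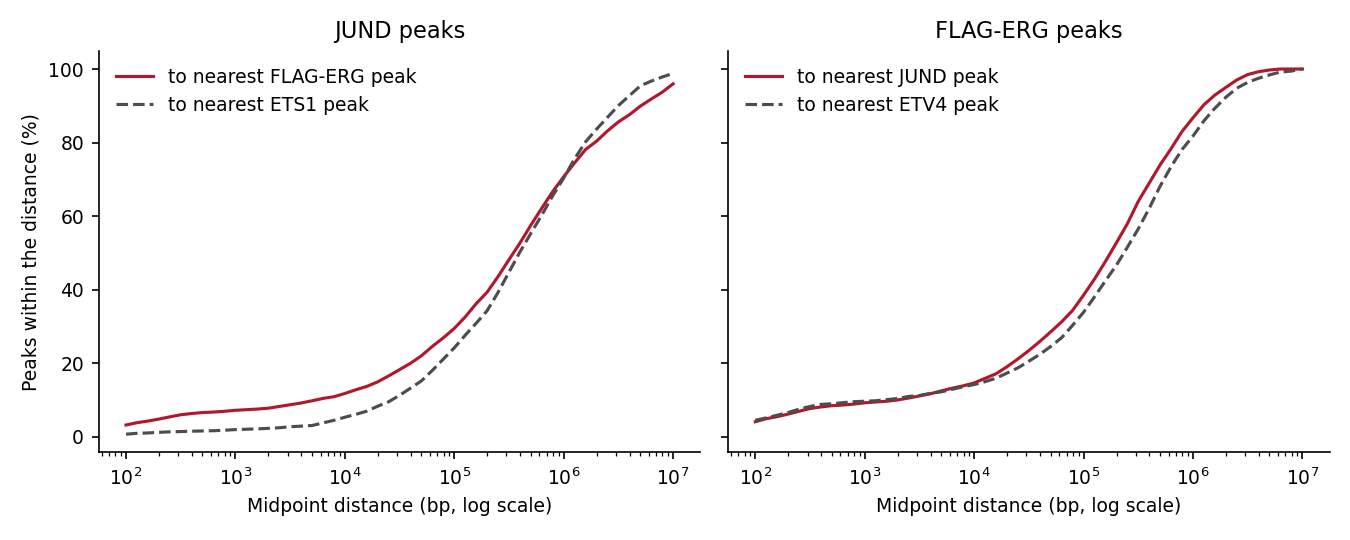
Cumulative share, in percent, of all JUND peaks (left) and all FLAG-ERG peaks (right) whose midpoint lies within a given distance in bp (log scale) of the nearest peak of another list. The JUND curve for FLAG-ERG runs above that for ETS1 at short distances and meets it near 1 Mb, while the FLAG-ERG curves for JUND and ETV4 run together up to about 10 kb.

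The JUND file is ordered in a way that the labels do not describe, and shared peaks were concentrated towards its first rows. FLAG-ERG overlapped 65 of 595 peaks in the first 20% of rows (10.9%), then 49 of 595, 39 of 594, 25 of 595, and 15 of 594 in the last 20% (2.53%). The FLAG-ERG file had no such gradient, with 38, 35, 31, 51 and 38 shared peaks in its successive parts. ETV4 overlap fell along the JUND file too, in JUND peaks with FLAG-ERG from 70.8% (46 of 65, 58.8 to 80.4%) to 6.67% (1 of 15, 1.19 to 29.8%) and in those without from 38.9% to 11.7%. ETV4 was more frequent with FLAG-ERG in 4 of the 5 parts. In the last its share was lower, but the interval of the 1 of 15 includes the 11.7% of peaks without FLAG-ERG. The 29.99 points given above thus did not extend to the end of the file, and no reversal is shown there. FLAG-ETV1 was more frequent at JUND peaks with FLAG-ERG in 5 of 5 parts, by 22.3 to 44.0 points.

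In the FLAG-ERG file, peaks with JUND had ETV4 more often in 5 of 5 parts, by 35.1 to 61.5 points, and GABPA less often in 5 of 5. The GABPA counts at peaks with JUND were 1 of 38, 1 of 35, 0 of 31, 0 of 51 and 2 of 38, too few to compare part by part. FLAG-ETV1 was more frequent with JUND in 4 of 5 parts. Shared JUND peaks were also slightly wider than specific ones, with a median of 493 bp (491 to 495 bp) against 486 bp (486 to 488 bp), and FLAG-ERG peaks measured 486 bp (481 to 490 bp) and 482 bp (481 to 483 bp). The part of row order and of width in the overlaps was not tested beyond these values.

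**Figure D5:**
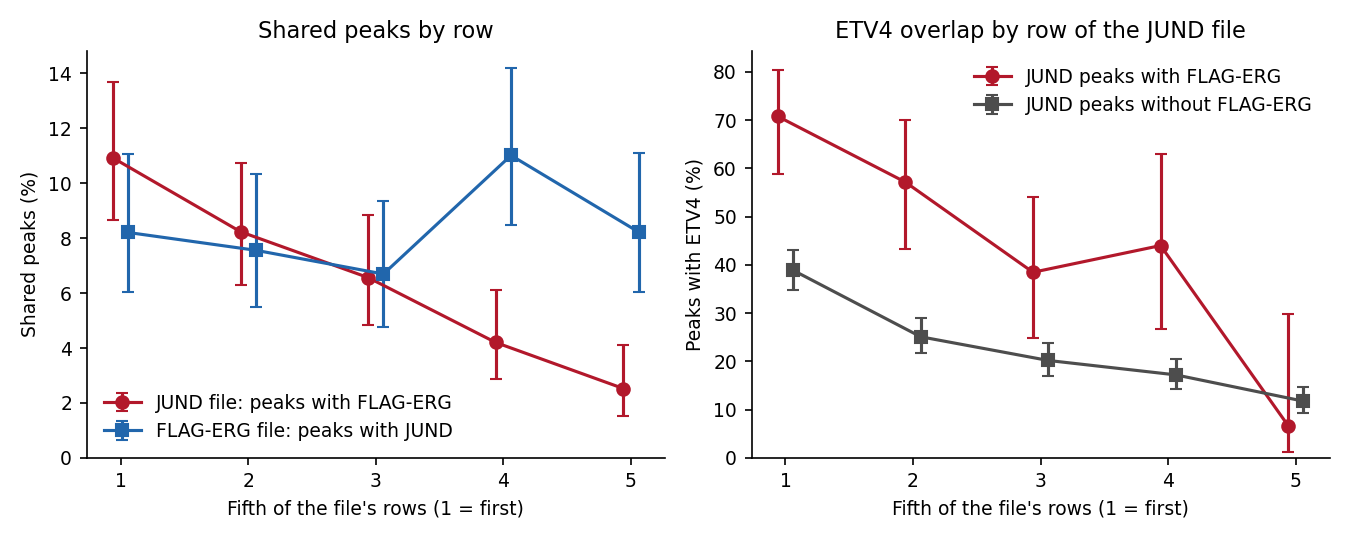
Left, share in percent of shared peaks in successive parts of 20% of the rows of the JUND file (red circles) and of the FLAG-ERG file (blue squares). Right, share of JUND peaks with ETV4 in the same parts of the JUND file, for peaks with (red circles) and without (grey squares) FLAG-ERG; bars are Wilson 95% intervals. The shared part of the JUND file falls from 10.9% to 2.53%, and that of the FLAG-ERG file does not.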

How the data were processed

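ChIP-seq libraries were made with the Illumina kit, per the labels' protocols, and 1 library per factor was sequenced. The lists hold 2973 JUND and 2314 FLAG-ERG peaks, and 3143 peaks of ETV4, 8736 of FLAG-ETV1, 2180 of ETS1 and 8070 of GABPA. The authors deposited, for each called region, a chromosome, a start and an end and no score, on hg18 per the labels. How peaks were called (aligner, caller, control, threshold) is not given in the sources used here, and depth is unknown. Samples were grouped by title. The input and FLAG control libraries were not analysed here.

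Starts were read as counted from 0 and are printed counted from 1. Shares carry Wilson intervals, differences of shares Newcombe intervals, and medians order-statistic intervals, all at 95%. The limit for a count of 0 is 3 counts of the total. These routines were tested on simulated data. Peaks are not replicates, so no p-value was computed. Alternatives required 50% of both peaks to overlap, allowed gaps of 500 bp, fixed the width at 400 bp, or used autosomes, either part of the files split into 2 equal parts by row, and other neighbour distances. Splitting only 1 file was added after seeing the data.

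Named regions were the 12 in the most further lists, the 5 closest and 5 least overlapping, the 5 narrowest gaps, groups of 3, and the extreme windows and chromosomes. The regions at 128000001 to 129000000 of chromosome 8, the splits by ETV4 and FLAG-ETV1, the distances within triples and the parts of 20% of rows were chosen after values were seen. Members, lists and rules were chosen with earlier results of these data known. The gene and sequence tables at hand are on another build and were not joined to hg18 positions. Scripts ran under Python 3.11.15 with scipy 1.17.1 for intervals, pandas 2.3.3 for tables, matplotlib 3.10.9 for plots and numpy 2.4.6.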

Additional observations from a re-analysis of the deposited data

How the results depend on the processing

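No paired analysis was possible because each factor has 1 library, and for the same reason none could be left out. Over 15 results, 95 of 114 alternative values stayed within the interval first reported (or within 1.5 times the count), 19 moved, and no difference whose interval lay on one side of 0 changed sign. The ETS1 difference at FLAG-ERG peaks, whose interval included 0, did so in the last part of the rows, to 4.82 points, and to 0.72 against the whole JUND list. A reciprocal overlap of 50% keeps well-centred pairs by construction: the shared part was 5.25% of the JUND and 6.74% of the FLAG-ERG list, the median midpoint distance 72.5 bp and the share within 100 bp 60.3%. Taking the first of 2 equal parts of the rows of both files left 62 shared peaks and the last 34, by construction fewer. These were 4.17% and 2.29% of the JUND peaks and 5.36% and 2.94% of the FLAG-ERG peaks. In the last part the median distance was 132 bp and the share within 100 bp 41.2%. With both files split, a peak that overlapped only the other part of the other file counted as without that factor. Differences in this split are thus by construction not the same measure as over the whole lists. The ETV4 difference at FLAG-ERG peaks was 55.6 points in the first part and 26.8 in the last. In the last part the ETV4 difference at JUND peaks was 20.02 points and the GABPA difference at FLAG-ERG peaks -4.002 (-8.65 to 9.31). With the FLAG-ERG file split and the JUND list whole, the ETV4 difference at FLAG-ERG peaks was 43.6 points in the first part and 50.6 in the last. The GABPA difference was then -8.09 and -8.59. Against the whole FLAG-ERG list, 8.82% of the first and 4.17% of the last part of the JUND rows were shared, and the ETV4 difference in the last was 13.9 points (3.87 to 26.3). Some intervals came to include 0 without a change of direction. For FLAG-ETV1 at FLAG-ERG peaks this happened in the last part of the rows, with 3.59 points (-10.5 to 20.6) and, against the whole JUND list, 7.72 (-1.58 to 17.7). For GABPA at FLAG-ERG peaks it also happened in the first part of both files, -6.82 (-9.85 to 1.15). The neighbour difference of JUND excluded 0 at 25 kb, 8.13 points (1.94 to 15.1), and that of FLAG-ERG did so with a reciprocal overlap of 50%, 8.59 (0.51 to 16.5), and with peaks set to 400 bp, 7.66 (0.25 to 15.0).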

Other observations

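Most of what either factor bound had no counterpart in any list of the series. Of the specific peaks, 2017 JUND peaks (72.6%, 70.9 to 74.2%) and 1252 FLAG-ERG peaks (59.0%, 56.9 to 61.1%) lay in no other list. Outside the other 4 lists were 69.8% of all JUND peaks and 56.6% of all FLAG-ERG peaks, so the specific peaks were near the whole lists. JUND peaks outside the other 4 lists overlapped FLAG-ERG in 59 of 2076 cases, 2.84% (2.21 to 3.65%), and FLAG-ERG peaks outside them overlapped JUND in 57 of 1309, 4.35% (3.38 to 5.60%). FLAG-ERG peaks with GABPA and no other ETS list overlapped JUND in 1 of 91 cases, 1.10% (0.19 to 5.96%). This interval includes the 4.35% of FLAG-ERG peaks outside the other lists, and the share over all FLAG-ERG peaks was 8.34%. Windows of 1 Mb without a shared region held up to 15 peaks of one factor. After the window at 33000001 to 34000000 of chromosome 10, the highest JUND count was 11, reached in 3 windows. Of these, the window at 47000001 to 48000000 of chromosome 7 had 0 FLAG-ERG peaks, another at 35000001 to 36000000 of chromosome 10 also had 0, and that at 54000001 to 55000000 of chromosome 14 had 2. For FLAG-ERG, after chromosome 1, 200000001 to 201000000, the window at 203000001 to 204000000 of the same chromosome had 11 peaks (with 2 JUND peaks). Windows at 201000001 to 202000000 of chromosome 1 (with 1 JUND peak), 73000001 to 74000000 of chromosome 10 (with 2), and 35000001 to 36000000 of chromosome 17 (with 2) had 10 peaks. Each of these windows compares a PC3 list with an RWPE-1 list, so cell line and factor cannot be told apart in the counts.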
